A study of Homo sapiens with 18 samples.

Results

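Extracellular vesicles (EVs) released by HEK293T cells that lack ATG7 were compared with EVs of wild-type HEK293T cells, with 3 libraries of each. HEK293T is an established human line from embryonic kidney. The knockout was labelled ATG7-/-, clone F2, so all 3 knockout libraries come from 1 clone and a difference cannot be told apart from one between clones. These 6 libraries of 18 in the series were taken by their labels. The other libraries used here are 3 from EVs of ATG12-/- cells (clone D9) and 3 each from wild-type and ATG7-/- cells. Another 3, from ATG12-/- cells, entered the fits that use cells. All cells had been without serum for 24 h. Per the labels' protocols, total RNA was extracted with a NucleoSpin kit, made into stranded total-RNA libraries with 22 cycles of amplification, and sequenced as 50-base single-end reads (HiSeq4000). The labels call the libraries biological replicates without saying whether they came from separate cultures, so p-values measure the spread between these libraries.

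ATG7 is the E1-like enzyme that activates both ATG12 and the ATG8 proteins (LC3 and GABARAP), the first step of the reactions that attach LC3 to membrane lipid in autophagy. LC3 on membranes of the endosomal system has been linked to the loading of RNA-binding proteins into EVs that cells secrete. EVs carry fragments of mRNA along with abundant small structured RNAs, among them those made by RNA polymerase III: 7SL of the signal recognition particle, 7SK, the RNase P RNA and Y RNAs. The comparison asks whether the RNA of EVs differed when LC3 conjugation was lost.

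Several genes that moved are noncoding features whose letters are the reverse complement of a well-known mRNA, so a stretch of each is printed to show this. The sequences are from GENCODE release 29 on GRCh38, 5′ to 3′ on the feature's own strand. Capitals mark the end of the longest exact run that is the reverse complement of the coding sequence of the mRNA named. The runs are 135 nt in AD000091.1 (against RPL23A), 148 nt in AL138963.3 (TPT1), 213 nt in SH3D19 (RPS3A), 158 nt in AC005062.1 (RPL21) and 563 nt in VIM-AS1 (VIM). The first 4 features rose and VIM-AS1 fell.
AD000091.1, 19:15611760-15611819, minus strand: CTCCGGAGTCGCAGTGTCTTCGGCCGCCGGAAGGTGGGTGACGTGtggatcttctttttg
AL138963.3, 13:45340142-45340201, plus strand: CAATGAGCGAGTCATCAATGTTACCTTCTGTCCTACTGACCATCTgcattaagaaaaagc
SH3D19, 4:151102862-151102891, minus strand: AACGTGAGCTTCAATCATTGTCTGgagaaa
AC005062.1, 7:20002750-20002809, minus strand: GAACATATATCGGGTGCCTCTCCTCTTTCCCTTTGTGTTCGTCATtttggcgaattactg
VIM-AS1, 10:17229408-17229467, minus strand: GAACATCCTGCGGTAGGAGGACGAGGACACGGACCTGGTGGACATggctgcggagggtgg

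Other sequences are shown for the structured RNAs and for CDR1. The first 60 bases of RPPH1 and RN7SK identify the polymerase III genes whose values fell. CDR1 is shown with the 7 letters of the miR-7 seed in capitals, and the microRNA (from RefSeq, GRCh38.p14, MIR7-1) with its seed, bases 2 to 8, in capitals. The seed letters themselves, not their complement, repeat in CDR1.
RPPH1, 14:20343348-20343407, minus strand: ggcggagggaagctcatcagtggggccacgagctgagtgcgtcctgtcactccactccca
RN7SK, 6:52995621-52995680, plus strand: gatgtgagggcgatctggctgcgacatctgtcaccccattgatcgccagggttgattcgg
CDR1, X:140784307-140784366, minus strand: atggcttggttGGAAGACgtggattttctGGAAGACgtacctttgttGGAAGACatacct
hsa-miR-7-5p, 9:83969811-83969834, minus strand: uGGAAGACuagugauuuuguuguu

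The values are TPM, a length-scaled share of each library's transcripts, so a gene can move because others do, and less RNA per vesicle cannot be told apart from fewer vesicles that carry it. TPM keep no depth, so depth is unknown, and a gene at 0 is said to be listed at 0. Between 13957 and 14716 genes per library reached 1 TPM in these 6 libraries. Pearson's r across genes (not independent replicates) ran from 0.624 to 0.634 within wild-type EVs, 0.707 to 0.724 within ATG7-/- EVs and 0.641 to 0.659 between them. The listed HEK293 markers summed to 292.7 to 347 TPM in wild-type EVs, with 8 of 9 genes above 0, and to 376.8 to 490.4 TPM in ATG7-/- EVs, with 9 of 9. These markers moved both ways. The mean of KRT8 went from 162 to 332 TPM, with 83.4% of its leading transcript opposite exons, mainly of KRT18. The mean of NEFM went from 59.2 to 10.4 TPM, and neither was called. The 16 blood and serum markers were at 0 in all wild-type EVs, with 3 of 16 above 0 and a sum of 0 to 6.449 TPM in ATG7-/- EVs. The submitters did not state the strand setting of the quantification in the sources used here. If it was opposite to the kit's, each value describes RNA from the other strand, so features opposite mRNAs are named with the mRNA.

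Of 17076 genes tested, 24 passed limma's test at an adjusted p under 0.05 (0.141%), 17 higher (0.0996%) and 7 lower (0.041%) in ATG7-/- EVs. With upper quartile scaling, which moved the median of all genes to 0.16, the split was 28 higher and 5 lower. The groups did not overlap for any of the 24, against 13.9% of all genes tested. Of the 24, 7 reached the filter on low values only through the group where they were higher, as did 22.8% of all genes tested, and so had to differ: RF02120, H3F3AP4, AC005899.6, AC004980.2, AC093525.4, AC008740.1 and AC009229.2. The other 17 reached it without that group. At an unadjusted p under 0.05 there were 1261 genes (7.38%), 741 higher (4.34%) and 520 lower (3.05%). By annotation the 24 comprised 5 protein-coding genes, 6 antisense genes, 5 pseudogenes and 8 other noncoding genes. Their leading transcripts were short, with a median of 348.5 nt against 764 nt over all genes tested, and 19 of 24 were under 600 nt against 37.82%. Exons on the opposite strand overlapped the leading transcript in 12 of 24 (50%), against 30.12% of all genes tested. Of the 24, 10 reached a group mean of 1000 TPM, 7 higher and 3 lower.

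**Figure D1:**
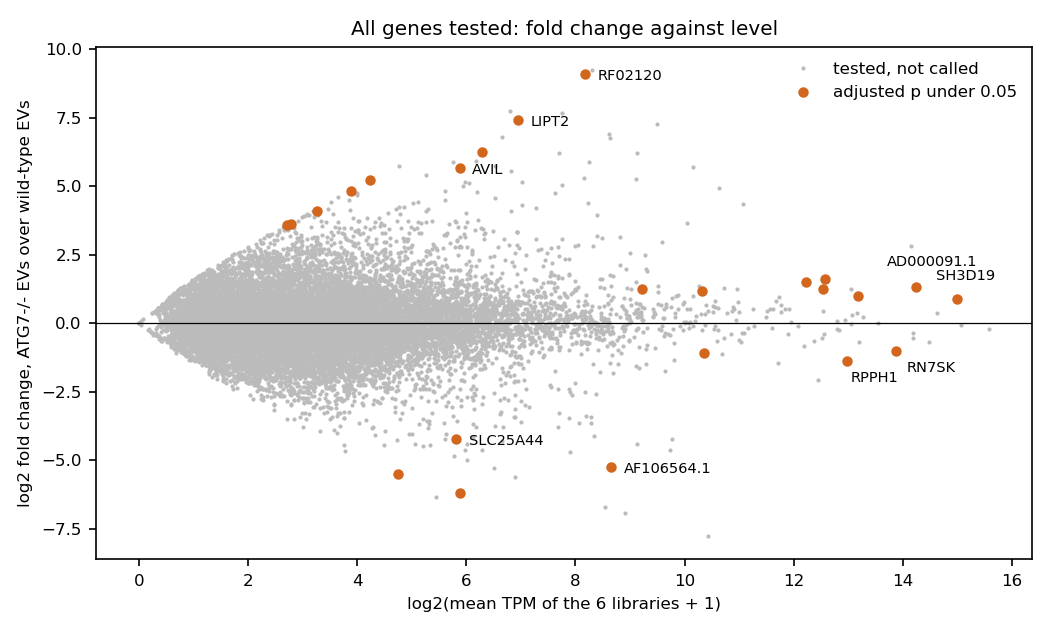
Log2 fold change of ATG7-/- over wild-type EVs for each gene tested (vertical axis) against log2 of the mean TPM of the 6 libraries plus 1 (horizontal axis). Orange points are the 24 genes with an adjusted p under 0.05. The spread of grey points is wide at low levels and narrow at high levels, where AD000091.1, SH3D19, RPPH1 and RN7SK stand outside it.

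The targeted gene was looked at first. ATG7 (chromosome 3, 11272309 to 11557665) had 19.5, 14.9 and 13.3 TPM in wild-type EVs and 15.6, 13.5 and 11.2 TPM in ATG7-/- EVs. The groups overlapped, and the log2 fold change of -0.13 (SE 0.47, limma adjusted p = 0.984) did not pass. VGLL4 exons lie opposite 32.2% of the 4959-nt leading transcript. Since a mutation can remove the protein and leave the mRNA level as it was, these values check nothing about the label. ATG12, the ubiquitin-like partner that ATG7 also activates, had 0.844, 9.54 and 22.6 TPM in wild-type EVs and 12.2, 4.65 and 0.326 TPM in ATG7-/- EVs, a spread wider than any difference (-0.67, SE 1.11, limma adjusted p = 0.944).

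Of the called genes, 4 hold the reverse complement of a ribosomal protein or elongation factor mRNA, and all 4 rose in ATG7-/- EVs. AL138963.3, which also rose, holds that of TPT1, a gene that the list of translation factors used here includes. At any level, 95 tested features held such a complement over at least 100 nt (TPT1 included). Of these, 5 rose (5.26%) and 0 fell, where 0.0996% and 0.041% of all genes tested did. This set was chosen after values were seen. Of the 5 that rose, SH3D19 (chromosome 4, 151102751 to 151325632, minus strand), an adaptor protein gene, had the most TPM. Its value here is 99.98% a noncoding transcript of 503 nt. In that transcript, 52.1% lies opposite exons of RPS3A, a protein of the small ribosomal subunit. SH3D19 had 25503, 22338 and 23267 TPM in wild-type EVs and 44738, 40271 and 38978 TPM in ATG7-/- EVs. Every knockout library was above every wild-type library, and SH3D19 rose by 0.90 on the log2 scale (SE 0.08, limma adjusted p = 0.00272). RPS3A itself, on the other strand, had 266, 201 and 236 TPM in wild-type EVs and 214, 249 and 292 TPM in ATG7-/- EVs, which overlapped (0.20, SE 0.25, limma adjusted p = 0.916).

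AD000091.1 (chromosome 19, 15611623 to 15611909, minus strand) is annotated as a processed pseudogene, and its 287 nt match the reverse complement of RPL23A, a protein of the large ribosomal subunit, at 97.4% identity over 272 aligned positions. It had 10744, 11763 and 11967 TPM in wild-type EVs and 26479.9, 26394 and 28257 TPM in ATG7-/- EVs. The libraries of a group lay close together and the groups were 2.35-fold apart in their means (log2 fold change 1.33, SE 0.09, limma adjusted p = 0.000345). Of its 50-base words, 52.1% occur in other genes on the same strand and 85.7% in other genes reverse-complemented, so reads from RPL23A copies cannot be assigned to it alone. RPL23A had a mean of 32.7 TPM in wild-type EVs and 21.9 TPM in ATG7-/- EVs (-0.48, limma adjusted p = 0.915).

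AL138963.3 (chromosome 13, 45340039 to 45341183, plus strand) is an antisense gene whose leading transcript lies wholly opposite exons of TPT1, the translationally controlled tumour protein gene, an abundant mRNA regulated like those of ribosomal proteins. It had 3402, 3114 and 2903 TPM in wild-type EVs and 9114, 8425 and 9510.1 TPM in ATG7-/- EVs. The rise was 2.87-fold in the means (log2 fold change 1.62, SE 0.11, limma adjusted p = 0.000345), with no overlap. TPT1 on the other strand had 201, 87.0 and 173 TPM in wild-type EVs and 264, 231 and 292 TPM in ATG7-/- EVs, which also did not overlap but did not pass (0.94, SE 0.34, limma adjusted p = 0.559).

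AC005062.1 (chromosome 7, 19918981 to 20140453, minus strand) starts with 198 nt that are the exact reverse complement of RPL21, another large-subunit protein mRNA. It had 4039, 3328 and 3742 TPM in wild-type EVs and 8496, 7418 and 8560.4 TPM in ATG7-/- EVs. The knockout libraries were again all higher (1.24, SE 0.13, limma adjusted p = 0.00729). RPL21 itself was at 259 TPM on average in wild-type EVs and 545 TPM in ATG7-/- EVs, a difference of similar size that did not pass (1.34, limma adjusted p = 0.434). HSPA4L, a chaperone gene whose leading transcript holds the same RPL21 complement, had 1668, 1400.4 and 1587 TPM against 2677, 2526 and 2197 TPM, with no overlap and no call (0.76, SE 0.15).

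AC067930.2 (chromosome 8, 143579636 to 143580670, plus strand), 68.9% opposite exons of the elongation factor gene EEF1D, had 904, 818 and 774 TPM in wild-type EVs and 1689.9, 1685 and 1838 TPM in ATG7-/- EVs. It rose by 1.16 on the log2 scale (SE 0.15, limma adjusted p = 0.0302). Its neighbour AC067930.6, which holds the first 269 nt of its leading transcript and is also opposite EEF1D, had 195, 210.2 and 201 TPM against 352, 314 and 319 TPM and was not called (0.79, SE 0.23). EEF1D itself had 223, 230.3 and 149 TPM against 169.7, 210.3 and 192 TPM (0.04, SE 0.29).

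Calls for the abundant features rested on the mean-variance trend of the test, which gives genes with high TPM a smaller expected spread. Without it, and with or without sample weights, AD000091.1 (limma adjusted p = 0.477 and 0.559), AL138963.3 (0.338 and 0.405), SH3D19 (0.634 and 0.717) and AC005062.1 (0.509 and 0.624) were not called, at fold changes that moved by no more than 0.01. AD000091.1, AL138963.3 and SH3D19 kept their calls with each of the 6 libraries left out, AC005062.1 in 5 of 6 (not without ATG7-/- EV replicate 1) and AC067930.2 in 0 of 6.

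In all, 25 features of at least 100 TPM held the reverse complement of an mRNA from the ribosomal protein and translation factor lists (TPT1 included) over at least 100 nt at 95% identity or more. This set was chosen after values were seen and is described, not tested. Of the 25, 20 had a log2 fold change above 0, 5 rose, 0 fell, and the groups did not overlap for 14 higher (56%) and 3 lower (12%). Of the 886 genes of at least 100 TPM, 491 were above 0, 10 rose and 4 fell (1.13% and 0.451%), and the groups did not overlap for 14.6% higher and 13.3% lower. The median log2 fold change was 0.45 for the 25 features and 0.11 for the 886 genes. Members share targets: 5 hold parts of RPL23A, and pairs hold RPL21, EEF1D, RPSA, EIF3E and EIF4B. The 60 genes of these lists with at least 100 TPM had a median of 0.04, with 35 above 0 and 0 called. The lowest members were 7SL copies, RF00017 (-1.78, SE 0.80), which matched EIF3E over 112 nt, and RN7SL524P (-0.96, SE 0.61), which matched RPS20 over 145 nt. Both overlapped between groups and were not called. Also below 0 were AC005884.2, another RPL23A complement (6417, 6613 and 8008 TPM against 5286, 4211 and 5519 TPM, log2 fold change -0.39), and both EIF4B features, AL589880.1 (-0.38) and AC068888.1 (-0.22).

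**Figure D2:**
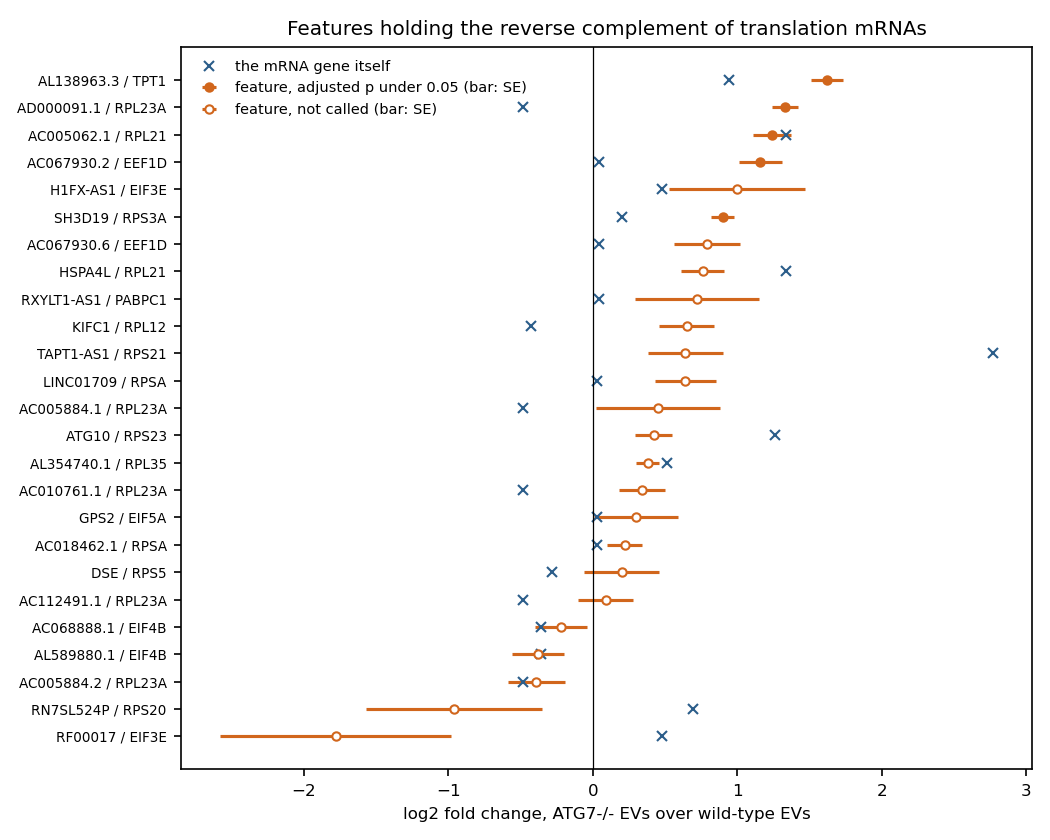
Log2 fold change of ATG7-/- over wild-type EVs (horizontal axis) for the 25 features, each named with the mRNA it complements. Circles are the features with SE bars, filled where the adjusted p was under 0.05, and crosses are the mRNA genes themselves. The features lie mostly right of 0, and the crosses lie on both sides.

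Other features opposite mRNAs were also mostly above 0, with calls in both directions. Beside the 25, there were 168 features of at least 100 TPM with 50% or more of the leading transcript opposite coding exons. Of these, 111 were above 0, 1 rose (AF111169.3, 0.595%) and 2 fell (AF106564.1 and VIM-AS1, 1.19%), with a median of 0.22. Their groups did not overlap for 30 higher (17.9%) and 19 lower (11.3%). For the 886 genes of at least 100 TPM these shares were 14.6% and 13.3%, with a median of 0.11. AC006064.4, wholly opposite GAPDH, the glycolytic enzyme, had 13007, 11565 and 12000.5 TPM in wild-type EVs and 11877, 11024 and 11816 TPM in ATG7-/- EVs, which overlapped (0.02, SE 0.09). AL354740.1, one of the 25, whose leading transcript complements RPL35, had 23903, 20760.4 and 23487 TPM against 28929.9, 27146 and 26737 TPM, higher in every library by a smaller step that was not called (0.38, SE 0.08, limma adjusted p = 0.186). AC011603.2, opposite the tubulin gene TUBA1B, was also higher in every library and not called, with 8892, 7523 and 8579 TPM against 10994, 9532 and 9433 TPM (0.36, SE 0.10).

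Called features at the VIM and VASH1 loci moved in opposite directions. VIM-AS1 (chromosome 10, 17214239 to 17229985, minus strand) lies opposite VIM, the intermediate filament vimentin, over 69.8% of its leading transcript. It had 1939.9, 1664 and 1869.9 TPM in wild-type EVs and 911, 759 and 748 TPM in ATG7-/- EVs, and fell by 1.08 on the log2 scale (SE 0.15, limma adjusted p = 0.0375). AL133415.1, also opposite VIM, had 387, 373 and 394 TPM against 183, 134 and 182 TPM (-1.12, SE 0.25, limma adjusted p = 0.205), no overlap and no call. VIM itself overlapped at 60.9, 54.2 and 52.9 TPM against 39.7, 47.8 and 74.5 TPM.

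AF111169.3 (chromosome 14, 76774284 to 76781518, minus strand) lies opposite VASH1, the gene of the tubulin-detyrosinating enzyme vasohibin. It had 3347, 2689.7 and 2012 TPM in wild-type EVs and 6750.1, 6754 and 7258 TPM in ATG7-/- EVs and rose (1.49, SE 0.18, limma adjusted p = 0.0205). VASH1-AS1, opposite the same gene, had 122.9, 162 and 162 TPM against 296, 283 and 305 TPM, also without overlap but not called (1.09, SE 0.24). Leaving out 1 library ended the call for VIM-AS1 each time, and for AF111169.3 in 4 of 6 cases, all but those without wild-type EV replicate 1 or 3. Upper quartile scaling also ended the VIM-AS1 call.

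LHFPL3-AS2 (chromosome 7, 104894628 to 104926645, minus strand) is an abundant noncoding transcript with 16.1% of its leading transcript opposite the 7SL copy RN7SL8P, which was at 0 in all 6 libraries. It had 6739.8, 5549.6 and 7322 TPM in wild-type EVs and 11954, 12669 and 11604 TPM in ATG7-/- EVs. It rose by 0.99 (SE 0.12, limma adjusted p = 0.0182), and kept its call in 2 of the 6 fits without 1 library, those without wild-type EV replicate 2 or 3. LHFPL3-AS2 was named after its values were seen.

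**Figure D3:**
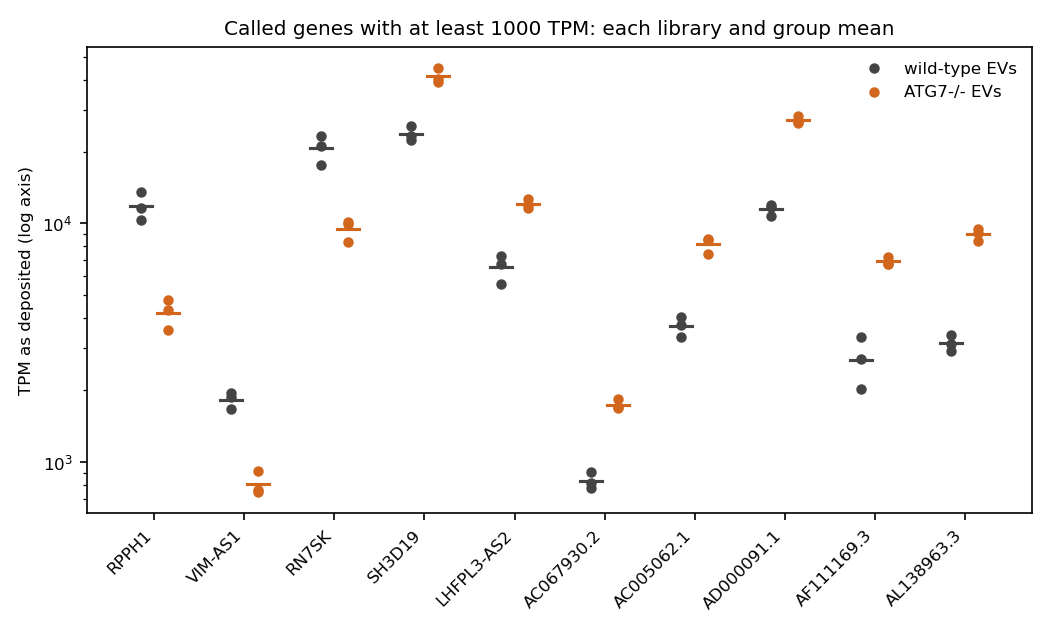
TPM as deposited (log axis) of the 10 called genes with a group mean of at least 1000 TPM. Each point is 1 of 3 libraries per group and the bar is the group mean. RPPH1, VIM-AS1 and RN7SK are lower in every ATG7-/- library, and the other genes are higher in every one.

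The smallest adjusted p belonged to AF106564.1 (chromosome 8, 24912165 to 24914717, minus strand), an antisense gene with 66.8% of its 2553 nt opposite NEFM, the neurofilament medium chain, a protein of the neuronal cytoskeleton that HEK293 cells also express. It had 817, 793 and 755 TPM in wild-type EVs and 22.5, 17.1 and 15.8 TPM in ATG7-/- EVs. The means were 42.6-fold apart, and AF106564.1 fell by 5.26 on the log2 scale (SE 0.24, limma adjusted p = 3.31e-05). The call held under all 18 alternatives, with adjusted p from 1.21e-05 to 0.00468.

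NEFM on the other strand had 61.2, 63.5 and 52.9 TPM in wild-type EVs and 2.15, 20.6 and 8.52 TPM in ATG7-/- EVs. NEFM was lower in every knockout library but did not pass (-2.70, SE 0.66, limma adjusted p = 0.269). In cells AF106564.1 fell too, from 38.1, 40.8 and 37.2 TPM in wild type to 2.81, 2.64 and 4.53 TPM in ATG7-/- (-3.16, SE 0.24, limma adjusted p = 0.00241). It was the only one of the 24 genes to pass in cells, where 45 of 22471 genes passed (0.2%). The interaction, the EV difference minus the cell difference in a fit that scaled all 18 libraries together, was -1.83 (SE 0.35, limma adjusted p = 0.0452). EVs of ATG12-/- cells had 403, 384 and 449.9 TPM, above ATG7-/- EVs in every library (-4.40 for ATG7-/- minus ATG12-/-, SE 0.24, limma adjusted p = 0.000177).

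A locus on the X chromosome was also much lower, without passing in EVs. PIN4, a prolyl isomerase, and CITED1, a transcriptional co-activator, overlap on opposite strands. PIN4 had 159.5, 127 and 142 TPM in wild-type EVs and 4.02, 32.2 and 0 TPM in ATG7-/- EVs (-4.63, SE 1.02, limma adjusted p = 0.196). CITED1 had 169, 249 and 148 TPM against 12.7, 1.21 and 20.9 TPM (-4.32, SE 0.78, limma adjusted p = 0.106). Neither overlapped between groups, and in cells PIN4 fell by 1.55 (limma adjusted p = 0.045).

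Among genes transcribed by polymerase III, those of the RNase P and 7SK RNAs had lower values in ATG7-/- EVs. The strand setting is unknown for these genes too, so their values may describe RNA of the other strand, which was not tested. RPPH1 (chromosome 14, 20343075 to 20343407, minus strand) is the catalytic RNA of RNase P, which trims the leader from precursor tRNAs. It had 10328, 13561 and 11619 TPM in wild-type EVs and 4757, 4318 and 3571 TPM in ATG7-/- EVs. No library overlapped, the means were 2.81-fold apart, and RPPH1 fell by 1.39 (SE 0.14, limma adjusted p = 0.00729). All of its 50-base words occur in the gene AL355075.4 on the same strand, so the split of reads between them is uncertain. In cells RPPH1 was not called and its mean was higher in ATG7-/-, with 1017, 919.7 and 598 TPM in wild type and 905, 1911 and 1765 TPM in ATG7-/- (0.89, SE 0.38, limma adjusted p = 0.336). The interaction was -2.03 (SE 0.40, limma adjusted p = 0.0481).

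RN7SK (chromosome 6, 52995621 to 52995948, plus strand) is the RNA that holds the elongation factor P-TEFb inactive. It had 17602, 23178 and 21202 TPM in wild-type EVs and 10109.8, 9968 and 8311 TPM in ATG7-/- EVs. It fell by 1.03 (SE 0.13, limma adjusted p = 0.0233), with all knockout libraries below all wild-type ones. In cells it had 4998, 8113 and 4689.7 TPM in wild type and 8170.2, 9102 and 9211 TPM in ATG7-/- (0.69, SE 0.26, limma adjusted p = 0.296), and the interaction passed (-1.46, SE 0.28, limma adjusted p = 0.0422). All of its 50-base words occur in other annotated 7SK copies, so its value is uncertain. The copy RN7SKP80 had 27779, 29295 and 29673 TPM against 18182, 18286 and 13902 TPM (-0.70, SE 0.12, limma adjusted p = 0.0832). The summed TPM of all 7SK copies was 48606, 56134 and 53598 in wild-type EVs and 30883, 30799.8 and 24521 in ATG7-/- EVs, a log2 ratio of means of -0.88.

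The RPPH1 call was lost in the fits without the trend (limma adjusted p = 0.458 and 0.547) and held with each library left out. The RN7SK call was lost there too (0.614 and 0.703), with upper quartile scaling (0.101), and in 5 of the 6 fits without 1 library, all but that without wild-type EV replicate 1. Both stayed below 0 in every alternative run, RPPH1 from -1.49 to -1.17 and RN7SK from -1.12 to -0.80.

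The other polymerase III RNAs were not called. Of 24 listed, 11 were tested, with 6 above 0, 2 lower calls (RPPH1 and RN7SK) and a median log2 fold change of 0.49. Over all genes tested, 7 of 17076 were called lower (0.041%) and the median was -0.002. The groups did not overlap for 4 of the 11 higher and 3 lower, against 6.39% and 7.53% of all genes tested. RN7SL1 and RN7SL2, the RNAs of the signal recognition particle, had log2 fold changes of -0.05 (SE 0.14) and -0.21 (SE 0.12) at means of 36100.2 and 54344 TPM in wild-type EVs, and both were above 0 with upper quartile scaling. RN7SL2 was lower in every ATG7-/- library. The summed TPM of all 7SL copies was 105837, 111802 and 116015 in wild-type EVs and 88850.4, 86399 and 102384 in ATG7-/- EVs, lower without overlap, with a log2 ratio of means of -0.27. RNY1, a Y RNA bound by the Ro60 protein, had 4288, 3941 and 7056 TPM in wild-type EVs and 9499, 7268 and 18678 TPM in ATG7-/- EVs, higher without overlap and not called (1.24, SE 0.34, limma adjusted p = 0.339). RNY3 (0, 76.7 and 0 TPM against 1613, 137 and 514 TPM) and RNY4 (77.2, 106 and 0 TPM against 199.9, 283 and 1121 TPM) were also higher and not called. Without wild-type EV replicate 2, RNY3 passed (8.96, limma adjusted p = 0.00805). RNA5S1, a 5S ribosomal RNA gene, had 0, 897 and 616 TPM against 1128, 3197 and 3623 TPM. RMRP, a relative of RPPH1, overlapped at 139.8, 86.9 and 159.5 TPM against 143, 419 and 73.8 TPM. These RNAs are 96 to 300 nt long. The spread among libraries was wide for RMRP (SE 0.75), RNY3 (SE 1.52), RNA5S1 (SE 2.19) and RNY4 (SE 2.42), and narrow for RN7SL1 and RN7SL2.

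Proteins that bind 7SK and RNase P RNA had no called gene among 18 tested, with 9 above 0 and a median of -0.02. RPP30, an RNase P subunit, had 31.7, 23.4 and 9.83 TPM against 5.81, 3.29 and 2.28 TPM (-2.08, SE 0.61), and the subunit POP5 had 34.7, 29.6 and 47.0 TPM against 57.0, 93.5 and 92.0 TPM (1.19, SE 0.49). SSB, the La protein that binds the ends of polymerase III transcripts, had 0, 1.75 and 7.02 TPM against 24.2, 33.4 and 24.1 TPM (3.38, SE 0.84, limma adjusted p = 0.274). Of its leading transcript, 67.3% lies opposite exons of METTL5, which was at means of 117 TPM in wild-type EVs and 85.9 TPM in ATG7-/- EVs.

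CDR1 (chromosome X, 140783578 to 140784366, minus strand) encodes the cerebellar degeneration antigen, and all of its 789 nt lie opposite exons of LINC00632, the locus of the circular RNA that binds miR-7. It had 379, 354 and 377 TPM in wild-type EVs and 840.3, 856 and 767 TPM in ATG7-/- EVs. CDR1 rose 2.22-fold in the means, without overlap (log2 fold change 1.24, SE 0.18, limma adjusted p = 0.0375). The seed letters GGAAGAC printed above occur 38 times in it, and their reverse complement, the form that pairs with miR-7, 0 times. Of 1899 tested leading transcripts of 700 to 900 nt, 179 hold the letters at least once on the transcript's strand (9.43%), with at most 3 copies outside CDR1. LINC00632 overlapped between groups, with 16.4, 41.2 and 54.7 TPM against 39.1, 48.9 and 23.4 TPM (0.18, SE 0.53). No separate value is given for the circular RNA. If the values describe the other strand, that of CDR1 would be of LINC00632-strand RNA, which holds the pairing form. Which strand was measured was not tested.

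In cells CDR1 had 169, 271 and 186 TPM in wild type and 175, 191 and 145 TPM in ATG7-/- (-0.20, SE 0.24), and the interaction was 1.69 (SE 0.29, limma adjusted p = 0.0211). The CDR1 call in EVs was kept in 5 of 18 alternatives. Leaving out any of the 6 libraries ended it, as did no scaling (limma adjusted p = 0.0581) and no trend (0.508 and 0.611). It was also lost with a pseudocount of 5, no filter on low values, only the 6 libraries compared, or a replicate block. Its log2 fold change in EVs ranged from 1.15 to 1.47 over the alternatives.

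A further group of called genes was near 0 in one group of libraries and present in the other. LIPT2 (chromosome 11, 74491712 to 74493733), the mitochondrial octanoyltransferase that starts lipoate synthesis, had 0, 0 and 1.64 TPM in wild-type EVs and 319, 131 and 282 TPM in ATG7-/- EVs (7.42, SE 0.81, limma adjusted p = 0.00977). ATG12-/- EVs had 1.41, 0 and 5.66 TPM, and ATG7-/- minus ATG12-/- was 6.54 (SE 0.81, limma adjusted p = 0.029). Of the LIPT2 signal, 98.2% is a transcript of 218 nt, 83.0% of it opposite exons of AP001372.2. In cells it had 0, 0.743 and 2.25 TPM in wild type and 58.5, 3.05 and 241 TPM in ATG7-/- (4.48, SE 1.62, limma adjusted p = 0.273), also higher in every library, and the interaction did not pass (2.86, limma adjusted p = 0.703). The call was lost without wild-type EV replicate 1 or ATG7-/- EV replicate 1 or 3.

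AVIL (chromosome 12, 57797376 to 57818704) encodes advillin, an actin-binding protein of sensory neurons. It had 1.38, 0 and 3.85 TPM in wild-type EVs and 148, 120.0 and 73.2 TPM in ATG7-/- EVs, a rise of 5.67 (SE 0.81, limma adjusted p = 0.0375). In cells it was at a mean of 88.3 TPM in wild type and 115 TPM in ATG7-/-, and the interaction passed (5.37, limma adjusted p = 0.0153). SLC25A44 (chromosome 1, 156193932 to 156212796), the mitochondrial carrier of branched-chain amino acids, had 66.0, 59.6 and 195 TPM in wild-type EVs and 3.64, 5.43 and 2.47 TPM in ATG7-/- EVs. It fell by 4.22 (SE 0.60, limma adjusted p = 0.0375), and was low in cells of both genotypes, at means of 2.32 and 2.62 TPM. Both genes rest on transcripts under 300 nt (226 and 271 nt), and both lost their calls with any 1 library left out.

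RF02120 (chromosome X, 74280402 to 74280495, plus strand) is a 94-nt noncoding RNA within FTX, a noncoding gene of the X-inactivation centre, on the opposite strand. It was listed at 0 in every wild-type and every ATG12-/- EV library, against 471, 928 and 339.7 TPM in ATG7-/- EVs (limma adjusted p = 0.000345 against wild type and 0.000246 against ATG12-/-). It was present in cells of both genotypes, with 1311, 1771 and 2594 TPM in wild type and 825, 860.4 and 856 TPM in ATG7-/-. RF02120 reached the filter only through the ATG7-/- libraries, so without any of these it could not be tested, and its call in the other 13 alternatives is no sign of stability. FTX itself was at 210.5, 234 and 202 TPM against 305, 298.7 and 337 TPM (0.64, SE 0.22, limma adjusted p = 0.542).

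The remaining calls were listed at 0 in one group or nearly so. H3F3AP4, a pseudogene all of whose 50-base words occur in the histone H3.3 gene H3F3A or other copies, was at 0 in wild-type and ATG12-/- EVs and at 37.4, 25.2 and 20.4 TPM in ATG7-/- EVs (limma adjusted p = 0.0156 against wild type and 0.0234 against ATG12-/-). The noncoding gene AL390763.1 was at 0 in wild-type EVs and at 37.8, 36.9 and 32.7 TPM. AC005899.6 (29.5, 12.5 and 9.93 TPM), AC004980.2 (7.74, 14.7 and 10.8 TPM) and AC093525.4 (6.46, 11.98 and 16.7 TPM) were also at 0 in wild-type EVs. The pseudogene DNAJC19P6 had 0, 6.39 and 0 TPM against 234, 128 and 95.02 TPM.

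In the other direction AC008740.1 (237, 18.5 and 94.4 TPM) and AC009229.2 (50.1, 25.0 and 79.4 TPM) were listed at 0 in all ATG7-/- EVs. These 8 genes have leading transcripts of 255 to 497 nt, and an exact 0 can be a failed estimate. All but AL390763.1 and DNAJC19P6 were tested only because of the group where they were higher. Of the 8, only DNAJC19P6 kept its call in any fit that left out 1 library, that without wild-type EV replicate 2.

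**Figure D4:**
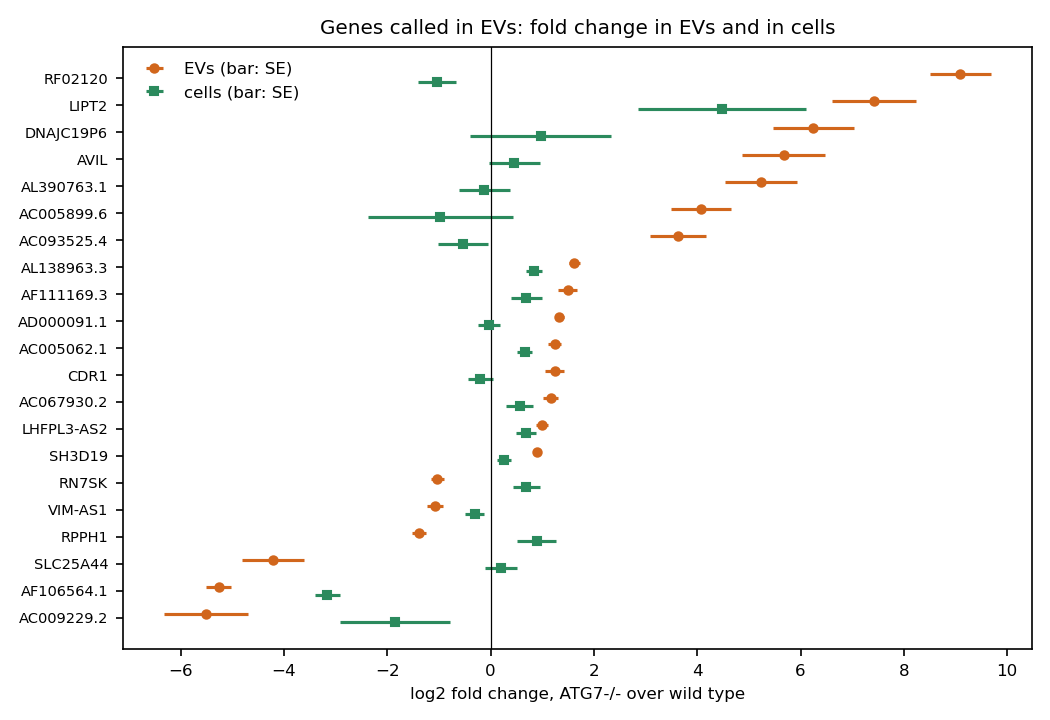
Log2 fold change of ATG7-/- over wild type in EVs (circles) and in cells (squares) with SE bars, for the 21 genes called in EVs that could be tested in cells. AF106564.1 is far below 0 in both, RF02120, RPPH1 and RN7SK lie on opposite sides of 0, and most squares lie near 0.

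Of the 24 genes called in EVs, 21 could be tested in cells, and 12 of these had the same sign there. Cells were separate libraries, and the interaction asks whether the ATG7-/- difference itself differed between EVs and cells. It passed for 12 of the 24, where 68 of 24647 genes passed in all (0.276%). The 24 were chosen by their EV difference, which is part of the interaction, so nothing is read from that count. Among the abundant genes, the interaction was above 0 for AD000091.1 (1.61, SE 0.22, limma adjusted p = 0.00401), AL138963.3 (1.03, SE 0.18, 0.0243) and SH3D19 (0.89, SE 0.14, 0.0103). Its fit scaled all 18 libraries together, so it exceeds the difference of the separately scaled EV and cell values. Those values were 1.33 and -0.03 for AD000091.1, 1.62 and 0.84 for AL138963.3, and 0.90 and 0.26 for SH3D19. How far the calls rest on that scaling was not tested. In cells AD000091.1 had 8051, 13756 and 9504 TPM in wild type and 10373, 9409 and 8734 TPM in ATG7-/-, which overlapped. AL138963.3 was higher in ATG7-/- cells in every library, with 1179, 1426 and 1445 TPM against 2406, 2572 and 1948 TPM, and did not pass (0.84, SE 0.16, limma adjusted p = 0.0868). For AC005062.1 (0.83, limma adjusted p = 0.0706), AC067930.2 (0.85, 0.383) and VIM-AS1 (-0.52, 0.511) the interaction did not pass.

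EVs of ATG12-/- cells, which lack the ubiquitin-like partner of ATG5 and so also lack LC3 conjugation, give a second knockout. Both knockouts are compared with the same wild-type libraries, so their fold changes are set side by side only as values. SH3D19 was at 0.90 in ATG7-/- EVs and 0.93 in ATG12-/- EVs, AD000091.1 at 1.33 and 1.18, AL138963.3 at 1.62 and 0.90, AC005062.1 at 1.24 and 0.62, RPPH1 at -1.39 and -1.30, RN7SK at -1.03 and -0.85, CDR1 at 1.24 and 1.13, and VIM-AS1 at -1.08 and -0.49. The knockouts were then compared with each other, where 8 of 17076 genes passed (0.0468%). Of the 24 genes, which were chosen by the same ATG7-/- libraries, 4 were among these: AF106564.1, RF02120, LIPT2 and H3F3AP4. The differences for SH3D19 (-0.03, SE 0.08), RPPH1 (-0.10, SE 0.14), RN7SK (-0.17, SE 0.13), CDR1 (0.11, SE 0.18) and AL138963.3 (0.72, SE 0.11, limma adjusted p = 0.0821) did not pass. A p that misses the threshold does not show that the knockouts act alike.

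Protein-coding genes just short of the threshold were led by NPM1, nucleophosmin, a nucleolar chaperone that binds RNA. It had 6006, 5937 and 6794 TPM in wild-type EVs and 10576, 10313 and 14716 TPM in ATG7-/- EVs, with no overlap (1.01, SE 0.15, limma adjusted p = 0.0543). NPM1 passed with upper quartile scaling (limma adjusted p = 0.00886), without transcripts under 200 nt (0.0336) and without mitochondrially encoded and small noncoding RNA (0.0387). Of its signal, 87.0% is a transcript of 247 nt. In cells it was at 5190.0, 6606 and 7471 TPM against 6221, 6723 and 6909.5 TPM. ATP5PO, a subunit of the mitochondrial ATP synthase, had 0, 1.20 and 0 TPM against 60.8, 28.1 and 227 TPM (5.88, limma adjusted p = 0.0736), and passed without transcripts under 200 nt (4.84, limma adjusted p = 0.034). PET100, a cytochrome c oxidase assembly factor, had 1.08, 0.152 and 0 TPM against 15.9, 33.7 and 13.4 TPM (3.97, limma adjusted p = 0.0832), and CCDC51 and LY6E were at 2.32 and 1.67.

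On the lower side, QRICH1, a transcription regulator, had 297, 571 and 869 TPM against 19.4, 45.4 and 62.4 TPM (-3.66, limma adjusted p = 0.0943). POLR1A, the largest subunit of RNA polymerase I, had 13.0, 46.4 and 52.1 TPM against 0.182, 0.935 and 1.65 TPM (-4.09, limma adjusted p = 0.113). KDM3B, a histone demethylase, was at -2.80 and ESPL1, the separase of cell division, at -2.37. None of these 4 passed.

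The LC3 machinery itself showed no called gene. The 11 LC3 conjugation enzymes had a median log2 fold change of 0.12, with 6 above 0, where the median of all genes tested was -0.00. ATG16L1, which directs the conjugation complex to membranes, had 0, 0 and 0.677 TPM against 12.3, 4.49 and 4.64 TPM (2.69, SE 0.70, limma adjusted p = 0.319). ATG10, the E2-like enzyme of the ATG12 reaction, was at 1991, 1656 and 1829 TPM against 2305, 2259.5 and 2253 TPM (0.42, SE 0.13, limma adjusted p = 0.465), but 41.4% of its leading transcript lies opposite RPS23, a ribosomal protein gene.

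All 5 tested members of the ATG8 family were below 0, with a median of -0.59, though MAP1LC3C at -0.07 lies within the shift of upper quartile scaling. GABARAP had 151, 129.8 and 119.7 TPM against 69.9, 94.0 and 83.9 TPM, the only member without overlap (-0.59, SE 0.31, limma adjusted p = 0.707). Among the 29 genes of autophagy initiation and cargo receptors, 9 were above 0 and 0 called (median -0.19). The receptor SQSTM1 had 61.3, 117 and 123.4 TPM against 203, 208 and 173 TPM, higher without overlap and not called (1.10, SE 0.34, limma adjusted p = 0.448).

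Lysosomal genes had lower values as a list, with 23 of 33 below 0, 0 called and a median of -0.63. For 9 of the 33 the groups did not overlap, all lower in ATG7-/- EVs, where 7.53% of all genes tested were lower without overlap. MCOLN1, a lysosomal cation channel, had 27.1, 53.1 and 46.2 TPM against 1.28, 1.07 and 0.269 TPM (-4.45, SE 1.09, limma adjusted p = 0.268). GAA, the acid glucosidase, had 45.7, 25.6 and 6.68 TPM against 5.63, 4.56 and 2.69 TPM (-1.96, SE 0.71). Endoplasmic reticulum chaperones and translocon genes had 17 of 21 below 0, 0 called and a median of -0.30 (-0.08 with upper quartile scaling), and 7 were lower without overlap. Of these, SSR4, a subunit of the translocon-associated complex, had 374, 429 and 274 TPM against 245, 203 and 176 TPM (-0.68, SE 0.28).

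Other lists had medians above 0, which upper quartile scaling raised further. The 13 mRNAs known to localise to cell protrusions had 10 members above 0 and a median of 0.46, with none called. RAB13, a small GTPase of that list, had 306, 309 and 295 TPM against 487, 449 and 457 TPM (0.71, SE 0.18, limma adjusted p = 0.321), and KIF1C, a kinesin, had 209, 156 and 129 TPM against 257, 238 and 219 TPM (0.65, SE 0.27). EV biogenesis and marker genes had 19 of 33 above 0 (median 0.44) and sterol synthesis genes 17 of 23 (0.37). Nuclear-encoded respiratory chain genes had 46 of 70 above 0 (0.29) and cytoskeleton genes 13 of 19 (0.27). The cytoskeleton list held 1 called gene, AVIL, where 0.0996% of all genes tested were called higher. The list of RNA-binding proteins tied to vesicle loading (36 genes tested, because 1 symbol has a pair of gene IDs) had 19 above 0, 0 called and a median of 0.05.

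Ribosomal protein genes had medians of 0.11 (46 large-subunit genes, 25 above 0) and 0.16 (31 small-subunit genes, 23 above 0). Translation factors had a median of -0.11 (31 genes, 14 above 0, median 0.09 with upper quartile scaling), and none of these genes was called. The strand setting is unknown for them too, so their values may describe RNA of the other strand, which was not tested. RPL41 had 262, 585 and 459 TPM against 1208, 705 and 1177 TPM (1.37, SE 0.34, limma adjusted p = 0.269). EEF2, the ribosomal translocase, was lower in each library, with 23483, 20583 and 24584 TPM against 13972, 13628 and 16299 TPM (-0.55, SE 0.12, limma adjusted p = 0.204), and 95.3% of its signal is a transcript of 218 nt. ATF4, the transcription factor of the amino acid response, had 487, 417 and 454 TPM against 664, 652 and 766 TPM (0.71, SE 0.18, limma adjusted p = 0.308), while the 24 genes of that response had a median of -0.23 (-0.01 with upper quartile scaling), with 9 above 0.

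Lipoate and branched-chain genes had 6 of 16 above 0 (median -0.25, or -0.04 with upper quartile scaling). LIPT2 was called higher and SLC25A44 lower, where 0.0996% of all genes tested were called higher and 0.041% lower. The list was chosen with earlier results of these data known, so nothing is read from these calls. Mitochondrially encoded mRNAs had 6 of 13 above 0 (median -0.05, or 0.17 with upper quartile scaling) and mitochondrial rRNAs and tRNAs 8 of 19 (median -0.36, or -0.13 with upper quartile scaling), none called. MT-RNR2, the large mitochondrial rRNA, had 6152, 6019 and 7694 TPM against 3929, 4174 and 3649.5 TPM, lower without overlap and not called (-0.65, SE 0.13, limma adjusted p = 0.146). Of the 4 spliceosomal RNAs tested, 2 were above 0, and RNU1-1, the U1 RNA, had 612, 2844 and 1016 TPM against 251, 0 and 404 TPM. The 8 HEK293 markers tested had 3 above 0 (median -0.03), and no blood or serum marker had enough TPM to be tested.

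**Figure D5:**
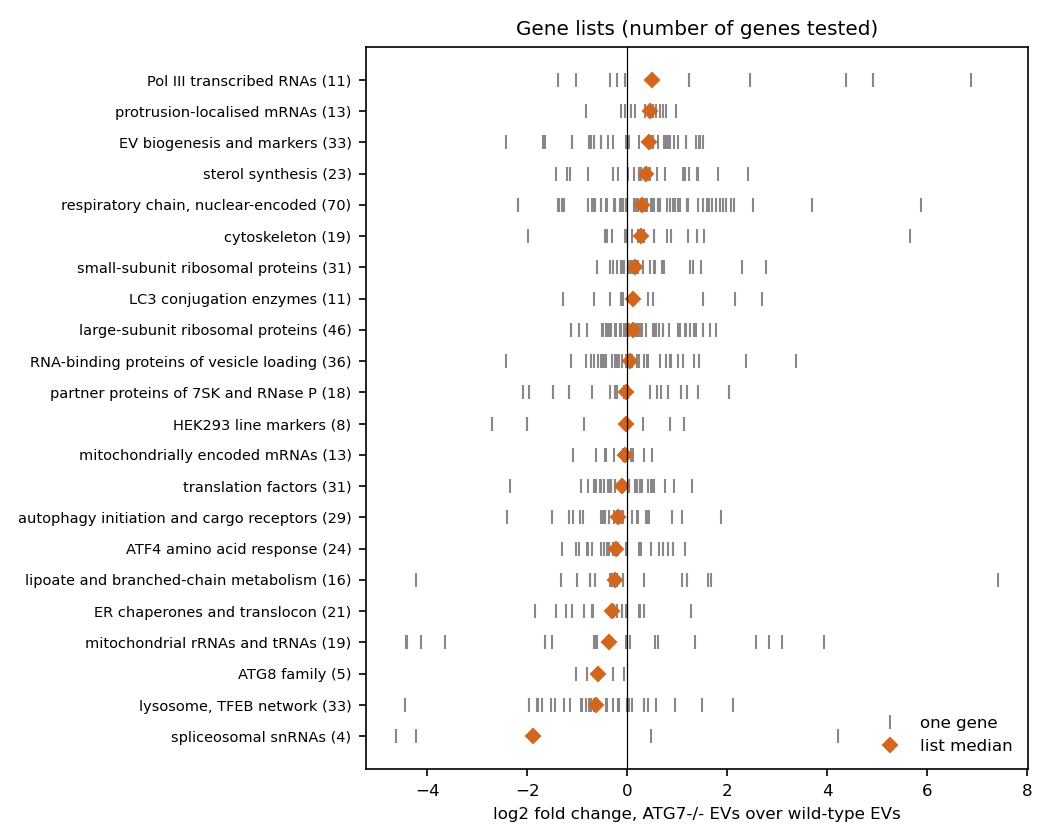
Log2 fold change of ATG7-/- over wild-type EVs (horizontal axis) for each gene of each list, with the number tested in brackets. Ticks are genes and diamonds list medians. Most diamonds lie within 0.6 of 0 while the ticks spread widely, and the spliceosomal list rests on 4 genes.

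By class of RNA, the snRNA and ribozyme genes that include RN7SK and RPPH1 held a lower share of TPM in every ATG7-/- EV library, with 4.42%, 5.31% and 4.43% in wild-type EVs and 2.21%, 2.21% and 2.03% in ATG7-/- EVs. Other long noncoding genes held 9.34%, 8.08% and 9.11% against 11.9%, 15.4% and 12.04%, and pseudogenes 6.99%, 6.80% and 7.02% against 8.20%, 9.04% and 8.91%. Mitochondrial rRNAs held 0.663% ± 0.0936 against 0.394% ± 0.0289 (SD, n = 3 each). Each of these 4 classes was without overlap at an exact permutation p of 0.1, two-sided, the smallest that 3 libraries against 3 allow, and 0.275 after Benjamini-Hochberg adjustment over 11 classes. Nuclear protein-coding genes held 36.9% ± 0.346 and 36.7% ± 1.71 (SD, n = 3 each), which overlapped.

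Short features varied most. The median size of the log2 fold change, either direction, was 1.68 over 200 genes with leading transcripts under 200 nt, 0.704 over 6531 genes of 500 to under 1000 nt and 0.417 over 4200 genes of 2000 nt or more. Of the 24 calls, 1 was in the last of these bins, AF106564.1.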

How the data were processed

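RNA of EVs and cells was measured in 18 libraries. The authors deposited TPM for 203027 transcripts, with Salmon 0.14 and DESeq2 among the tools in the submitters' processing notes, which give no role. The genome build, annotation and strand setting were not given in the sources used here. Transcripts were matched by identifier, without version, to GENCODE release 29 (202941 matched, 86 not, the latter at most 0.0384% of a library) and summed to 57865 genes.

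Scaling used median-of-ratios factors (0.953 to 1.046 in the 6 libraries compared). Genes that reached 1 TPM in 3 or more of the 9 EV libraries were tested on log2(scaled TPM + 1) with limma 3.58.1 (R 4.3.3, mean-variance trend, two-sided, no replicate block), adjusted by Benjamini-Hochberg over all genes tested, with a threshold of 0.05. In the comparison with wild type, the ATG12-/- libraries add to the estimate of the spread and enter the filter and the scale factors. A fold change on this scale understates low genes. Printed TPM are as deposited, before scaling, and each SE is limma's. Cells were fitted on 9 libraries and the interaction on 18, each with scale factors of its own. An interaction value is therefore not the difference of the printed EV and cell values. Transcript overlap and reverse complements were found with GENCODE exons and BLAST 2.17.0, with Python 3.11.15 and pandas 2.3.3. Class shares were compared with exact permutation tests (scipy 1.17.1). The fit was tested on simulated data.

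Named genes were ATG7 and ATG12, called genes without overlap (up to 15 per direction), the 5 protein-coding genes per direction nearest the threshold with at least 20 TPM and no overlap, the 10 most abundant in wild-type EVs, 2 per list by p with at least 5 TPM, measured polymerase III RNAs, and genes opposite a named gene. Others were chosen after their values were seen: LHFPL3-AS2, HSPA4L, AC067930.6, AL133415.1, VASH1-AS1, AC011603.2, AC005884.2, AL589880.1, AC068888.1, RF00017, RN7SL524P, RPL23A and RPL21. The groups, lists and members were chosen with earlier results of these data known. Alternatives changed the scaling, pseudocount, filter, trend, libraries, block and short transcripts.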

Additional observations from a re-analysis of the deposited data

Results flagged for a closer look

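The ATG7-/- difference differed between EVs and cells, by limma's interaction test over 18 libraries, for 12 genes called in EVs. All 18 libraries were scaled together for it, so its values are not the difference of the separately scaled EV and cell values. The interaction, on the log2(TPM + 1) scale, was -1.83 for AF106564.1 (adjusted p = 0.0452), 1.61 for AD000091.1 (0.00401), 1.03 for AL138963.3 (0.0243), 0.89 for SH3D19 (0.0103), -2.03 for RPPH1 (0.0481), -1.46 for RN7SK (0.0422), 1.69 for CDR1 (0.0211), 5.37 for AVIL (0.0153) and -4.21 for SLC25A44 (0.0103). For genes listed at 0 in wild-type EVs the fitted value depends on the pseudocount. It was 10.21 for RF02120 (1.23e-07), 5.45 for AL390763.1 (0.00746) and 4.24 for AC093525.4 (0.015).

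ATG7-/- and ATG12-/- EVs differed, by limma's test of that contrast on the same scale, by -4.40 for AF106564.1 (adjusted p = 0.000177), 9.09 for RF02120 (0.000246), 6.54 for LIPT2 (0.029) and 4.84 for H3F3AP4 (0.0234). RF02120 and H3F3AP4 were listed at 0 in all ATG12-/- EVs, so these fitted values also depend on the pseudocount. Both were tested only because of the ATG7-/- libraries, as was AC093525.4, and had to differ. All of these genes were chosen by their difference between ATG7-/- and wild-type EVs, whose libraries also enter the tests above.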

How the results depend on the processing

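The counts of called genes moved with the processing. In place of 24 genes (17 higher, 7 lower), 8 were called without a filter on low values (6 and 2), 4 without the trend (3 and 1) and 14 with only the 6 libraries compared (11 and 3). A replicate block left 9 (6 and 3), all among the 24. Deviations of same-numbered libraries correlated at 0.002, -0.005 and -0.015 across all genes tested. Values over all genes do not settle whether same-numbered libraries were paired. Upper quartile scaling gave 28 higher, and leaving out mitochondrially encoded and small noncoding RNA gave 4 lower. Leaving out 1 library gave 5 to 15 calls, 3 to 13 higher and 2 to 4 lower: 9, 15 and 12 without wild-type EV replicate 1, 2 and 3, and 5, 8 and 8 without ATG7-/- EV replicate 1, 2 and 3. Of the 24, AF106564.1 kept its call under all 18 alternatives. NPM1, ATP5PO and RNY3 gained a call under some. Values that changed sign were all of genes not called. They were RN7SL2 (0.02), RN7SL1 (0.17) and ATG7 (0.08) with upper quartile scaling, RN7SL1 without wild-type EV replicate 3 (0.08) or ATG7-/- EV replicate 1 (0.01), ATG7 without wild-type EV replicate 1 (0.03), ATG12 without wild-type EV replicate 3 (0.13) or ATG7-/- EV replicate 3 (0.23), and RN7SL3 (0.13) and RMRP (-0.19) without ATG7-/- EV replicate 2. Leaving out 1 library, the ranges were -0.17 to 0.08 for RN7SL1, -0.23 to 0.03 for ATG7, -1.68 to 0.23 for ATG12, -0.59 to 0.13 for RN7SL3 and -0.19 to 1.05 for RMRP. Without transcripts under 200 nt, the difference in share (ATG7-/- minus wild type, percentage points) was 0.0204 for small RNAs, -4.19 for miscellaneous RNAs and -0.343 for mitochondrial rRNAs. With upper quartile scaling list medians became -0.46 (lysosome), 0.65 (EV markers), 0.27 (RNA-binding proteins), 0.33 and 0.39 (large and small ribosomal subunit), 0.09 (translation factors), 0.17 (mitochondrially encoded mRNAs), -0.13 (mitochondrial rRNAs and tRNAs), 0.50 (respiratory chain), 0.64 (protrusion), 0.44 (cytoskeleton), -0.08 (ER chaperones), -0.01 (ATF4 response), 0.59 (sterol) and -0.04 (lipoate). Unscaled, they were -0.45 (mitochondrial rRNAs and tRNAs) and 0.24 (respiratory chain). The cause of these changes was not tested. Depth is unknown, 1 clone stands for the knockout, and low or short features are the least precise.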
